A study of Mus musculus with 4 samples.

Results

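A set of 10 genes that encode precursors of neuropeptide hormones was followed in RNA-seq libraries of mouse prostate: Calca, Calcb, Gal, Grp, Npy, Sst, Nts, Tac1, Vip and Adm. They were taken by name from the deposited gene tables, where all 10 were found among 24319 gene names. Peptide hormones are made as longer precursors, cut out by prohormone convertases in the secretory pathway, stored in dense-core granules and released to act on receptors of nearby or distant cells. In the prostate such peptides are known from scattered neuroendocrine cells and from the nerve fibres that supply the gland, and adrenomedullin, the product of Adm, is also made by stromal and vascular cells and by hypoxic tissue.

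The 4 libraries were 2 normal prostates of wild-type F1 males of C57BL/6 and FVB parents at 22 weeks, and 2 TRAMP prostate tumours labelled late stage, 24 weeks, with 24 to 28 weeks in the protocols. In TRAMP mice the rat probasin promoter, active in prostate epithelium under androgen control, drives the SV40 large T antigen, and these were heterozygous for it on the same strain cross. The libraries are called normal 1, normal 2, tumour 1 and tumour 2. The series asks about TET enzymes and hydroxymethylation in this model, and the labels name no question about peptide hormones. Whether the tumours came from separate mice is not said in the labels, so the spread behind each p-value is that between these samples and may be technical.

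Levels are FPKM (fragments relative to the length of the transcript and to the mapped total) as deposited, divided by 1 factor per library so that the median gene is level between libraries, and are called scaled FPKM below. The fragments behind a level were inferred from the width of its deposited interval and are called implied fragments. The libraries held 986717 to 1580686 implied fragments each. Genes with an FPKM of at least 1 in at least 2 libraries were tested with limma on log2(scaled FPKM + 1), and a gene was called at a Benjamini-Hochberg adjusted p under 0.05 over all 13162 genes tested. Of these 18.1% were called, 9.85% higher and 8.27% lower in the tumours, a split of 54.4% higher that became 89.6% with FPKM as deposited and 82.1% when scaled to the FPKM sum without dominant genes. The tissue labels were read against lists of marker genes. The 10 luminal epithelial markers summed to 9144 and 8785 scaled FPKM in the normal prostates, 317 in tumour 1, where 5 of the 10 were listed at 0, and 1143 in tumour 2. Of the 10, 3 fell, 0 rose and 7 did not pass. Pbsn, a secreted protein of the prostate, alone made 7022 and 6279.7 of the normal sums. Hoxb13 alone made 295 of the sum in tumour 1, and Epcam 20.3. The keratin gene Krt8 was at 178 in normal 1, 191 in normal 2, 0.258 in tumour 1 and 438 in tumour 2. The 12 neuroendocrine markers summed to 17.8 and 6.15 in the normal prostates and to 1020.2 and 1276 in the tumours, and 10 of 11 tested rose. In bulk tissue, fewer cells of a type and less RNA per cell cannot be told apart.

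The upstream sequences of 3 of the genes are shown because these genes had 3 different outcomes: Adm was called higher in the tumours, Calca was high in 1 tumour, and Sst was listed at 0 in every library. Each is the 250 bases before the RefSeq gene start on GRCm38.p6, written 5′ to 3′ on the gene's own strand. Adm lies on the plus strand (chr7:110627407-110627656), Calca on the minus strand (chr7:114636358-114636607) and Sst on the minus strand (chr16:23890845-23891094). Capitals mark, in Adm, the hypoxia response core GCGTG read on the opposite strand, in Calca the short form TGACG of the cyclic AMP response element, and in Sst the full element TGACGTCA.
Adm: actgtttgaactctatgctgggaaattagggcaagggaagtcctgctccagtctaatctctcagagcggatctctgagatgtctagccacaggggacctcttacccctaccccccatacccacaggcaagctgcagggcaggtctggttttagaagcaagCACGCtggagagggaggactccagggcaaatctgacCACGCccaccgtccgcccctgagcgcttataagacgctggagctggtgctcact
Calca: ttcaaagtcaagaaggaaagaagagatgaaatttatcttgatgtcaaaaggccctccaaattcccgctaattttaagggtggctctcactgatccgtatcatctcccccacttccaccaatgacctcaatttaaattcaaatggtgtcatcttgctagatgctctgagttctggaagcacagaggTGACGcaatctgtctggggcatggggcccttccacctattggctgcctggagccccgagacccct
Sst: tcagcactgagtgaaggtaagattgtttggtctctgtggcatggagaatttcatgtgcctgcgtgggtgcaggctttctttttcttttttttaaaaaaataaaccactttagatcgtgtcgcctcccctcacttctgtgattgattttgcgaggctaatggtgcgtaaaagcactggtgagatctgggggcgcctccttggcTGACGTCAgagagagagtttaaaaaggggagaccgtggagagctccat
Both strands were searched for the motifs named here and for the other hypoxia core, spelled ACGTG. Each full element also holds the short form on both strands. Adm held GCGTG 90 and 54 bases before its start and no match to the other core, and 28.1% of 32817 promoter windows of the same length held at least 1 GCGTG. Calca held TGACG 65 bases before its start, as did 17.8% of windows at any position. Sst held TGACGTCA 48 bases before its start, a motif in 1.55% of windows, and it also held the hypoxia core GCGTG at 190. Tac1, which was not called, held both hypoxia cores, GCGTG at 127, 76 and 40 and the other at 61 and 60, and Npy held GCGTG at 65. The short form TGACG also lay in Nts at 166, in Tac1 at 197 and 43 and in Vip at 79, and the window of Gal held none of these motifs. The windows of 8 of the 10 genes were searched, and those of Calcb and Grp were not used here. These matches describe letters in a window and were not tied to the levels by any test.

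Levels of the 10 genes were low in normal prostate. Only Tac1 and Adm were above 0 in all 4 libraries, and Calcb, Sst and Vip were listed at 0 in all 4. Tac1 had the highest level of the 10 in both normal prostates, at 5.59 and 5.30 scaled FPKM. The 10 genes together summed to 10.3 and 6.37 scaled FPKM in the normal prostates, 11.3 in tumour 1 and 50.1 in tumour 2, and Calca alone made 37.1 of the last value. Of the 10 genes, 3 passed the filter on low values (Adm, Calca and Tac1), and 1 of these, Adm, was called, against 18.1% of all genes tested.

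**Figure D1:**
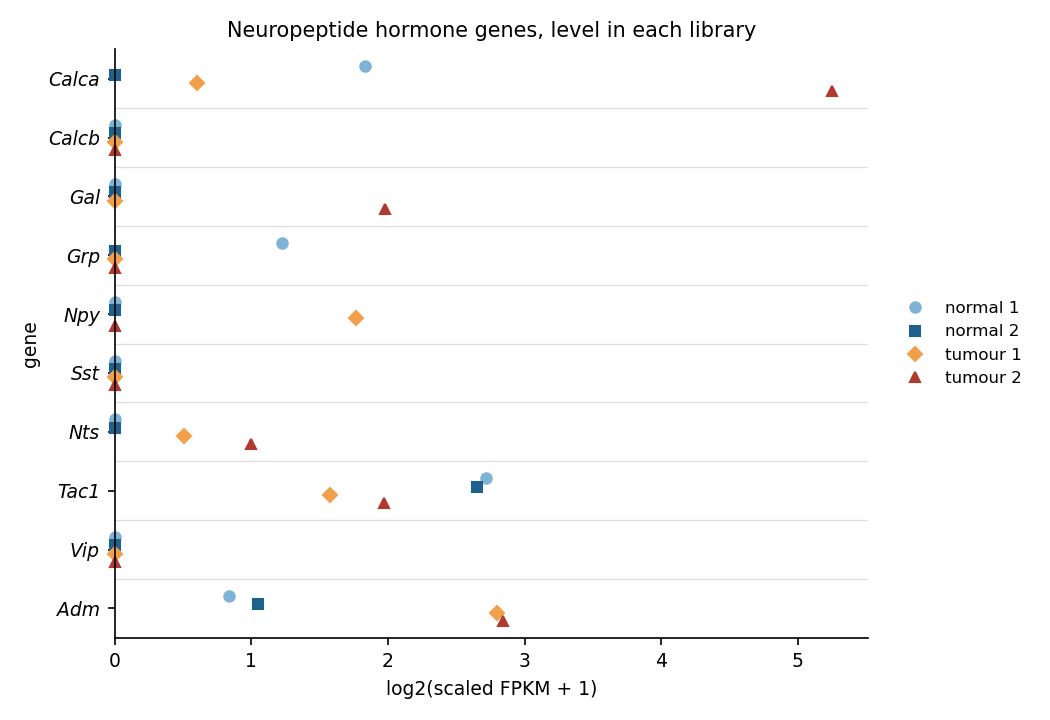
Level of each of the 10 genes in each library, as log2(scaled FPKM + 1) on the x axis, with 1 symbol per library. Calca in tumour 2 (37.1 scaled FPKM) stands apart, Adm lies higher in each tumour than in either normal prostate, and Calcb, Sst and Vip are listed at 0 throughout.

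Adm encodes adrenomedullin, a vasodilator peptide of the calcitonin family that acts on the receptor Calcrl paired with Ramp2 or Ramp3. It lies on chromosome 7 (110627669 to 110629819, mm10). Its level was 0.790 in normal 1, 1.07 in normal 2, 5.96 in tumour 1 and 6.18 in tumour 2, in scaled FPKM. Both tumours lay above both normal prostates. Adm rose 3.67-fold on the log2(scaled FPKM + 1) scale (log2 fold change 1.88, SE 0.39, limma adjusted p = 0.0398). It passed the filter through the tumours alone, so a rise was favoured by the filter. Behind these levels stood 1 implied fragment in normal 1, 2 in normal 2, 17 in tumour 1 and 14.7 in tumour 2. The 95% Poisson intervals reached up to 4.40 and 3.87 scaled FPKM in the normal prostates and down to 3.47 and 3.44 in the tumours, so single libraries of the groups overlapped within counting error. The call was lost with a pseudocount of 0.1 (limma adjusted p = 0.0521), without the filter (0.0761) and by voom on the implied fragments (0.0857). It was also lost without normal 1, normal 2 or tumour 1, which left 1 library in a group. The log2 fold change was then 1.78, 2.04 and 1.91. Without normal 1 or normal 2 every gene tested lost its call, so the losses in those fits are not particular to Adm. The same limit holds for the lists below. Over all 10 alternatives the adjusted p ranged from 0.0210 to 0.313 and the log2 fold change from 1.78 to 2.60. An annotated gene on the opposite strand, Gm28863, overlaps Adm.

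Markers of cell types that can make adrenomedullin did not all follow it. The 10 endothelial markers summed to 12.7 and 7.26 scaled FPKM in the normal prostates, 6.37 in tumour 1 and 46.7 in tumour 2, while Adm lay at 5.96 in tumour 1 and 6.18 in tumour 2. The 8 macrophage markers summed to 22.4 and 19.7 in the normal prostates, against 193 in tumour 1 and 602 in tumour 2, and 4 of 8 tested rose. The 8 smooth muscle markers summed to 646 and 599.8 against 23.5 and 124. The part of these cell types in the Adm difference was not tested.

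Since Adm is a known target of the hypoxia-inducible factors, 16 other targets of these factors were read beside it. Of 15 tested, 6 rose, 0 fell and 9 did not pass, beside 9.85% higher and 8.27% lower of all genes tested. Their median log2 fold change was 1.20 against 0.07 over all genes tested. Ndrg1, a stress-response gene, rose from 2.42 and 1.88 scaled FPKM to 13.6 in tumour 1 and 17.0 in tumour 2 (log2 fold change 2.37, SE 0.40, limma adjusted p = 0.0282). Pfkfb3, which makes an activator of glycolysis, was at 2.73 and 2.62 against 17.5 and 16.8 (adjusted p = 0.0267), and P4ha1, a collagen prolyl hydroxylase subunit, at 2.91 and 5.09 against 19.5 and 27.6 (adjusted p = 0.0330). Ldha, lactate dehydrogenase A, rose 2.41-fold, Higd1a, a mitochondrial protein, 2.33-fold, and Pgk1, a glycolytic kinase, 2.30-fold (limma adjusted p = 0.0402, 0.0495 and 0.0397). Of 10 alternatives the call was lost in 4 each for Ndrg1, Pfkfb3 and Pgk1, in 5 each for P4ha1 and Ldha and in 7 for Higd1a. For Ldha, voom gave a log2 fold change of 0.68. Other well-known targets did not pass. Vegfa, the endothelial growth factor, lay at 74.1 and 68.7 in the normal prostates, 75.5 in tumour 1 and 24.1 in tumour 2 (adjusted p = 0.386), and its sign turned with FPKM as deposited (log2 fold change 0.20). Slc2a1, a glucose transporter, lay at 29.3 and 20.5 against 8.19 and 31.4, a difference whose sign also turned with FPKM as deposited (0.33), and Bnip3, a mitophagy receptor, at 48.5 and 37.1 against 96.8 and 186 (adjusted p = 0.0524). Car9, a carbonic anhydrase of hypoxic tissue, was listed at 0 in 3 libraries and at 0.470 in tumour 1. Of all genes tested, 31.2% were called with FPKM as deposited, 89.6% of these higher, and 15.6% when the trend was left out. Without the filter 2.89% of all genes fitted were called, and by voom 15.5%. Among the hypoxia targets, 7 had an unadjusted p under 0.05 by limma without the filter, and voom on the filtered genes gave 4 calls. The count of rises was 10 with FPKM as deposited, 3 when the trend was left out and 0 without the filter. It was 0 without normal 1 or normal 2, and without tumour 1 there were 2 rises and 1 fall, of Vegfa (log2 fold change -1.45, adjusted p = 0.0480).

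Calca encodes calcitonin and, by alternative splicing of the same transcript, the neuropeptide CGRP, and the tables do not separate them. It lies on chromosome 7 (114631478 to 114636357). Its level was 2.55 scaled FPKM in normal 1, 0.521 in tumour 1 and 37.1 in tumour 2, and it was listed at 0 in normal 2. Only tumour 2 was high, and tumour 1 lay between the normal prostates, so the groups overlapped. The value in tumour 2 rested on 54.2 implied fragments, with a 95% Poisson interval of 27.9 to 48.4 scaled FPKM, and those in normal 1 and tumour 1 on 0.9 and 0.2, less than a single fragment. In normal 2, where Calca was listed at 0, 3 fragments would have been worth 2.66 scaled FPKM. Calca was not called (log2 fold change 2.01, SE 1.65, limma adjusted p = 0.402), and without tumour 2 the log2 fold change was -0.30 (adjusted p = 0.836). By FPKM it ranked 1591 of 24319 gene names in tumour 2.

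Calcb, which encodes the second form of CGRP, lies on the same chromosome (114718643 to 114723365), 82285 bases from Calca. It was listed at 0 in all 4 libraries, tumour 2 included. The pair are close paralogs, and the sources used here do not say how reads shared between them were counted.

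**Figure D2:**
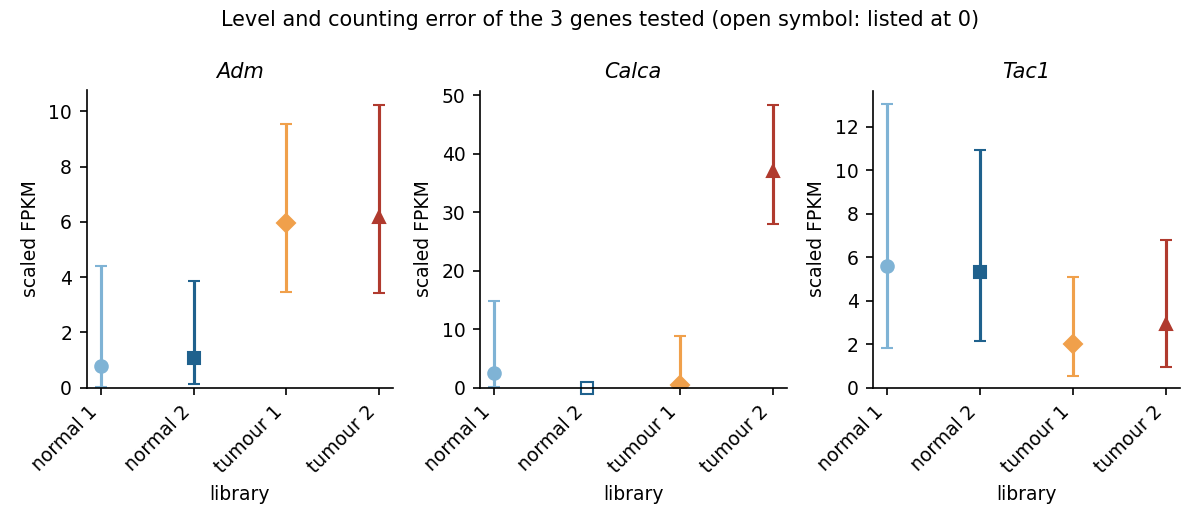
Scaled FPKM (linear y axis, from 0) of Adm, Calca and Tac1 in each library, with 95% Poisson intervals from the implied fragments, which cover counting error only. The intervals of Adm in the normal prostates reach 4.40 and 3.87 and meet those of the tumours, that of Calca in tumour 2 (27.9 to 48.4) lies above the others, and those of Tac1 overlap in all 4 libraries.

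Tac1 encodes the tachykinins substance P and neurokinin A, sensory and enteric transmitters. It lies on chromosome 6 (7555071 to 7562973). Its level was 5.59 scaled FPKM in normal 1, 5.30 in normal 2, 1.99 in tumour 1 and 2.92 in tumour 2. Both tumours lay below both normal prostates on this scale, but Tac1 did not pass (log2 fold change -0.91, SE 0.41, limma adjusted p = 0.166). With FPKM as deposited the values were 4.44 and 3.65 against 2.67 and 4.39, so that the groups overlapped (log2 fold change -0.18). Each value rested on 4 to 7 implied fragments. The sign was negative under all 10 alternatives, with a log2 fold change of -1.16 to -0.18.

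The 4 remaining genes with any signal rested on 1 to 3 implied fragments each over all libraries, and none passed the filter. Gal (chromosome 19, 3409917 to 3414457), which encodes galanin, an inhibitory neuropeptide, was at 2.93 scaled FPKM in tumour 2 and listed at 0 elsewhere. Npy (chromosome 6, 49822729 to 49829505), which encodes neuropeptide Y, a sympathetic transmitter, was at 2.41 in tumour 1 and listed at 0 elsewhere. Grp, which encodes gastrin-releasing peptide, the mammalian bombesin, was at 1.34 in normal 1 and listed at 0 elsewhere, and it overlaps an annotated gene on the opposite strand. Nts (chromosome 10, 102481756 to 102490418), which encodes neurotensin, was listed at 0 in the normal prostates and was at 0.422 in tumour 1 and 0.994 in tumour 2, on 1 and 2 implied fragments. Where these genes were listed at 0, 3 fragments would have been worth 1.79 to 8.15 scaled FPKM. The levels seen for Npy, Grp and Nts, themselves on 1 or 2 fragments, lay under that limit in each library where the gene was listed at 0, so no difference between libraries is shown for them. For Gal the same held in both normal prostates, while in tumour 1 the limit, 2.49, lay under the 2.93 seen in tumour 2. Gal in normal 1 would have needed 5.62 scaled FPKM to reach 3 fragments, and Npy in normal 1 8.15. Fitted without the filter, 0 of the 7 genes with any signal were called by limma, and 2 (Adm and Nts) had an unadjusted p under 0.05. By voom, run only on the 3 genes that passed the filter, 0 were called and 1 (Adm) had an unadjusted p under 0.05. The adjusted p of Nts was 0.144, of Gal 0.408, of Npy 0.409 and of Grp 0.415. Nts lay just outside the filter, with 1 library at an FPKM of 1 or more, and Adm just inside it, with 2.

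Sst (chromosome 16, 23889581 to 23890844), which encodes somatostatin, a general inhibitor of hormone secretion, and Vip (chromosome 10, 5639218 to 5647614), which encodes vasoactive intestinal peptide, a relaxant transmitter of pelvic nerves, were listed at 0 in all 4 libraries. Markers of peripheral neurons were present in part. Dbh, the enzyme that makes noradrenaline and a defining marker of sympathetic neurons, was at 0 in all 4 libraries. The 14 neuronal markers summed to 0.620 and 2.35 scaled FPKM in the normal prostates, with 2 and 3 of them above 0, and to 274 and 83.4 in the tumours. The sum in tumour 1 was led by Elavl4, an RNA-binding protein of neurons (163, and 22.8 in tumour 2), and that in tumour 2 by Nefl, a neurofilament subunit (23.8, and 26.9 in tumour 1). The 9 Schwann cell markers summed to 20.1 in normal 1, 24.6 in normal 2, 30.3 in tumour 1 and 42.1 in tumour 2. Of the 9, Sox10 and Foxd3 were at 0 in all 4 libraries, while Mbp, a myelin protein, lay at 6.64 to 14.2. Pmp22, another myelin protein, lay at 2.48 and 4.19 against 17.5 and 11.8 (limma adjusted p = 0.0505). Whether nerve content set the low peptide levels was not tested.

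The receptors of these peptides were read from a list of 29 receptors and accessory proteins. Of 10 tested, 3 rose, 1 fell and 6 did not pass, beside 9.85% higher and 8.27% lower of all genes tested. Their median log2 fold change was 1.51 against 0.07 over all genes. This contrast depended on the filter. Without it the median was 0.05 over 22 receptors, 11 positive and 11 negative, against 0.13 over all genes fitted. Sstr2, the somatostatin receptor used as a marker and drug target in neuroendocrine tumours, was listed at 0 in normal 1 and normal 2 and reached 12.4 scaled FPKM in tumour 1 and 17.0 in tumour 2 (limma adjusted p = 0.0195). Its tumour values rested on 35.1 and 38.5 implied fragments, and 3 fragments would have been worth 2.53 and 1.71 in the normal prostates. Sstr2 was thus found in both tumours while Sst was listed at 0 in both. It lies within a region where Slc39a11 overlaps on the opposite strand. Sstr5 lay at 2.69 in tumour 2 and was listed at 0 elsewhere, and Sstr1, Sstr3 and Sstr4 stayed under 1 in every library.

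Receptors of the calcitonin family went in different directions. Calcr, the calcitonin receptor, was listed at 0 in the normal prostates and reached 2.02 scaled FPKM in tumour 1 and 1.78 in tumour 2, on 14.3 and 10.4 implied fragments (limma adjusted p = 0.0402). Ramp1, which turns Calcrl into the CGRP receptor, fell from 14.7 and 14.0 scaled FPKM to 0.704 in tumour 1 and 0.829 in tumour 2 (log2 fold change -3.12, SE 0.39, limma adjusted p = 0.0211). Ramp2, which turns Calcrl into an adrenomedullin receptor, lay at 5.56 and 1.88 against 27.7 and 11.6 and did not pass (adjusted p = 0.0785), but it was called with FPKM as deposited (adjusted p = 0.0340) and shares its locus with Vps25. Ramp3, the other adrenomedullin partner, was listed at 0 in normal 1 and was at 0.618 in normal 2, 1.62 in tumour 1 and 3.82 in tumour 2 (adjusted p = 0.0956). Calcrl itself lay at 0.411 and 0.278 in the normal prostates, against 0.132 in tumour 1 and 1.39 in tumour 2, too low for the filter. In tumour 2, where Calca was high, both Calcr and Calcrl were thus above 0, while Ramp1 was at 0.829.

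Among the other receptors, Ntsr2, a neurotensin receptor, was listed at 0 in the normal prostates and reached 2.46 in tumour 1 and 1.81 in tumour 2 (limma adjusted p = 0.0393). Vipr1, a receptor of vasoactive intestinal peptide found on epithelia, lay at 16.7 and 16.1 in the normal prostates, against 0.440 in tumour 1 and 3.72 in tumour 2, just short of the threshold (adjusted p = 0.0519). Adcyap1r1, which prefers the related peptide PACAP, was listed at 0 in the normal prostates and was at 5.55 in tumour 1 and 1.06 in tumour 2 (adjusted p = 0.0960). Sort1, sortilin, which binds neurotensin and sorts proteins in the cell, lay at 30.1 and 30.6 against 12.1 and 19.9. Ackr3, a scavenger receptor for adrenomedullin and chemokines, lay at 21.8 and 26.2 against 6.76 and 19.5. Neither passed (adjusted p = 0.127 and 0.239). The receptors Grpr, Galr1, Galr3, Npy5r, Npy6r, Ntsr1 and Tacr2 were listed at 0 in all 4 libraries. Sstr2, Calcr, Ntsr2 and Adcyap1r1 were listed at 0 in both normal prostates and passed the filter through the tumours alone. The filter thus left no room for a fall in these genes. Ramp3 also passed through the tumours alone, so a rise was favoured by the filter. Without the filter 2 of 22 receptors were called, 1 higher and 1 lower, beside 2.89% of all genes fitted that way. With 1 library left out, 0 were called without normal 1 or normal 2 and 7 without tumour 2.

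**Figure D3:**
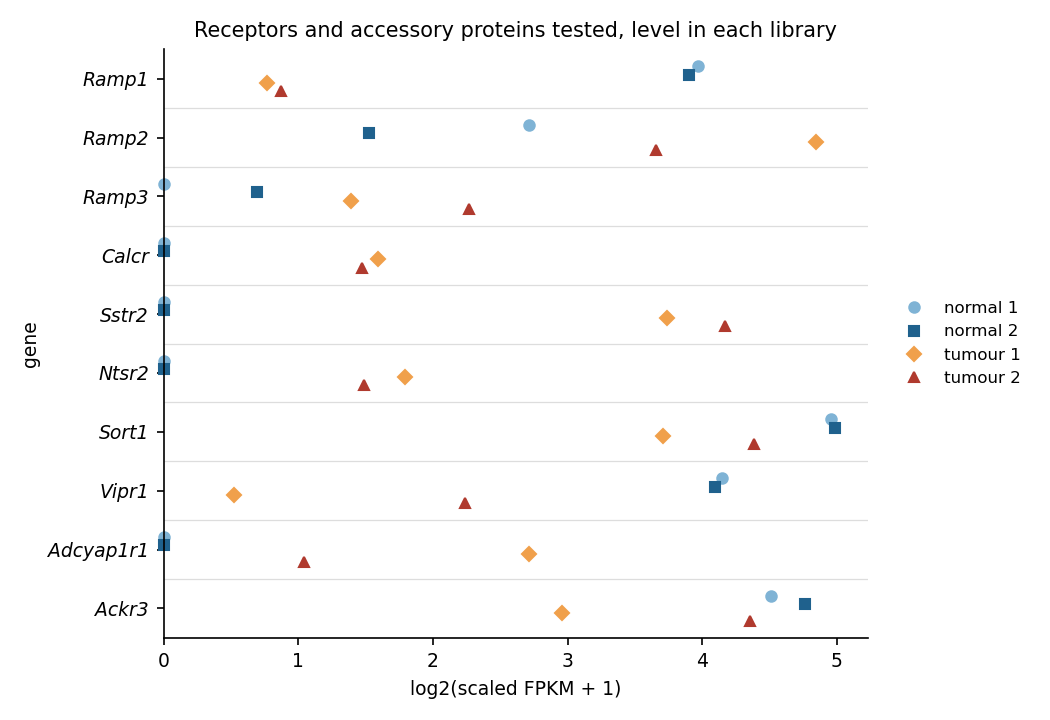
Level of the 10 receptors and accessory proteins tested, as log2(scaled FPKM + 1) on the x axis, with 1 symbol per library. Sstr2, Calcr and Ntsr2 are at 0 in both normal prostates and above 0 in both tumours, and Ramp1 lies near 14 scaled FPKM in the normal prostates and under 1 in the tumours.

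Calca was not the only peptide gene that was high in 1 tumour and low in the other. With 48 other precursor genes of regulatory peptides added, 58 in all, 5 genes in normal 1, 4 in normal 2, 6 in tumour 1 and 10 in tumour 2 had a level of at least 5 scaled FPKM. These were 8.62%, 6.90%, 10.3% and 17.2% of the 58 genes. Of all gene names, 32.3%, 32.0%, 33.9% and 36.0% reached that level in the same libraries. Adm, Penk, Sct and Vgf reached it in both tumours, Nmu and Nppa in tumour 1 only, and Calca, Crh, Gast, Iapp, Pdyn and Pomc in tumour 2 only. That level was chosen for description, after the values were seen, and Pomc in tumour 1 (3.59) lay near it. With 1 tumour of each pattern, the difference between them has no replicate.

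Iapp, which encodes amylin, a further calcitonin family peptide made by pancreatic beta cells, had the highest level of the 58 genes. It was at 1168 scaled FPKM in tumour 2, on 1179 implied fragments, and listed at 0 in the other 3 libraries, where 3 fragments would have been worth 2.53 to 5.69. It ranked 23 of 24319 gene names by FPKM in tumour 2 and was 31.5 times as high there as Calca, on a scale per transcript length. Slco1a5 overlaps Iapp on the opposite strand. Amylin and calcitonin both act on Calcr, alone or with a RAMP. Crh, the corticotropin-releasing hormone gene, was at 17.4 and Gast, the gastrin gene, at 15.3 in tumour 2, and both were listed at 0 elsewhere. Pdyn, the prodynorphin gene, lay at 20.9 in tumour 2 and 0.391 in tumour 1. In tumour 1 the leading precursor was Nmu, which encodes the smooth muscle stimulant neuromedin U, at 151 against 3.95 in tumour 2 and 0 as listed in both normal prostates (limma adjusted p = 0.0993). Nppa, which encodes atrial natriuretic peptide, lay at 19.1 in tumour 1 and 0.775 in tumour 2.

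**Figure D4:**
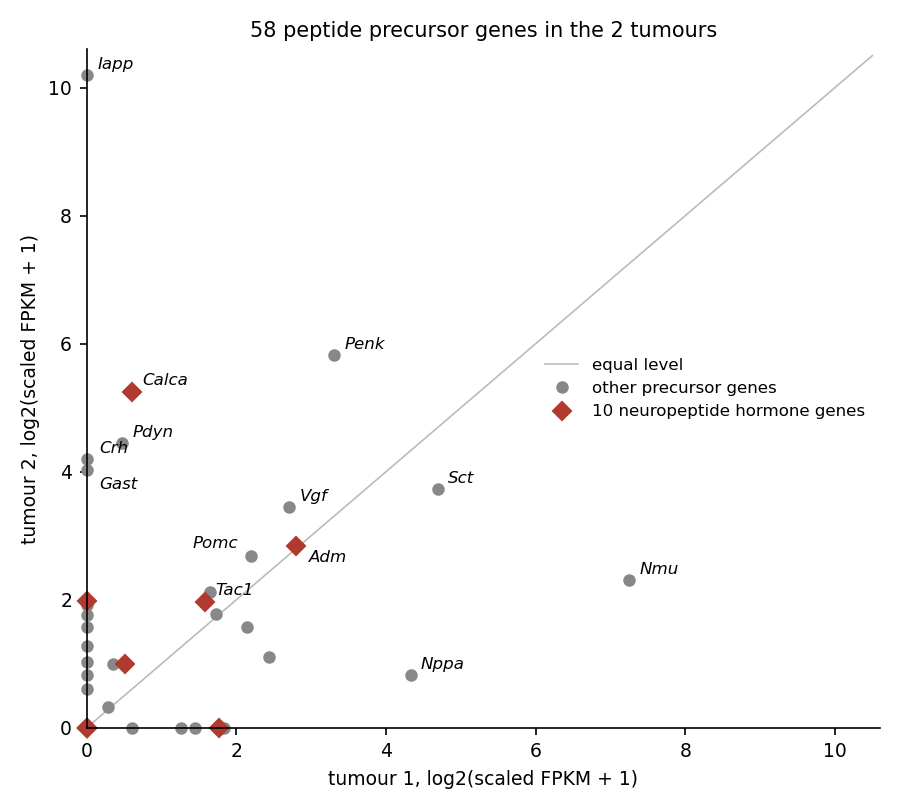
Level of 58 peptide precursor genes in tumour 1 (x axis) and tumour 2 (y axis), both as log2(scaled FPKM + 1), with the 10 neuropeptide hormone genes as diamonds and the line of equal level. Iapp and Calca lie near the axis of tumour 2, Nmu and Nppa lie below the line, and Adm lies close to it.

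Of the 13 other precursors tested, 4 rose, 1 fell and 8 did not pass, beside 9.85% higher and 8.27% lower of all genes tested. Those that rose were Sct, the secretin gene (24.8 and 12.3 scaled FPKM in the tumours), Vgf, a granule protein cut into several peptides (5.54 and 9.93), Pomc, the precursor of ACTH and melanocortins (3.59 and 5.43), and Nppb, which encodes brain natriuretic peptide (2.14 and 3.37). All 4 were listed at 0 in both normal prostates, and their limma adjusted p lay between 0.0204 and 0.0352. They passed the filter through the tumours alone, so only a rise could be called for them. Npff, which encodes neuropeptide FF, fell from 5.82 and 5.16 to 0.516 in tumour 1 and 0 as listed in tumour 2 (adjusted p = 0.0307), with 1.5 implied fragments in normal 1 and 2.6 in normal 2, at a locus that overlaps Gm28047. It passed the filter through the normal prostates alone. Penk, the enkephalin precursor, lay at 8.46 and 3.12 against 8.88 and 55.6, and Nmb, which encodes the bombesin-like neuromedin B, at 13.3 and 5.14 against 3.40 and 1.98, and neither passed (adjusted p = 0.198 and 0.148). Nmb overlaps Sec11a on the same strand, and Penk and Nmu each overlap an annotated gene on the opposite strand. Without the filter 1 of 32 other precursors was called, and by voom on the implied fragments 1 of 13. Of all genes 2.89% were called without the filter and 15.5% by voom. With 1 library left out, 0 were called without normal 1 or normal 2 and 8 without either tumour.

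The enzymes that cut peptide precursors are needed for any of these hormones to form. Of 10 tested processing genes 3 rose, 0 fell and 7 did not pass, beside 9.85% higher and 8.27% lower of all genes tested. Their median log2 fold change was -0.08, which turned to 0.66 with FPKM as deposited. Scg5, the helper of convertase PC2, was listed at 0 in the normal prostates and reached 128 scaled FPKM in tumour 1 and 83.9 in tumour 2. Pcsk1n, an inhibitor of convertase PC1, was likewise listed at 0 and reached 16.8 and 19.3. Both passed the filter through the tumours alone, so a fall could not be called for them. Cpe, which trims basic residues from cut peptides, rose 4.95-fold, from 14.0 and 13.3 in normal prostate to 76.8 in tumour 1 and 66.9 in tumour 2 (log2 fold change 2.31, SE 0.27, limma adjusted p = 0.0204). The convertases PC1 and PC2 were found mainly in tumour 2. Pcsk1 lay at 29.7 there and was listed at 0 in the other 3 libraries, and Pcsk2 lay at 5.89 there and under 0.3 in the others. In tumour 1, whose Scg5 level was the highest of the 4, Pcsk1 was thus listed at 0 and Pcsk2 lay at 0.0910. Pam, which amidates peptides such as CGRP and adrenomedullin, lay at 27.5 and 27.7 against 9.43 and 23.6, Pcsk7 at 17.7 and 14.4 against 7.86 and 9.10, and Furin, a convertase of most cells, at 11.7 and 18.4 against 5.05 and 10.2. None of the 3 passed, and Pam (log2 fold change 0.06) and Pcsk7 (0.02) changed sign with FPKM as deposited. The count of calls was 0 without normal 1 or normal 2 and 5 without tumour 2.

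Of 13 tested peptidases that break such peptides down, 0 were called by limma, with 4 at an unadjusted p under 0.05, and 0 by voom, again with 4. Of all genes tested 18.1% were called by limma. An unadjusted p under 0.05 was reached by 5242 of the 13162 by limma and by 5084 by voom. Without tumour 1 there was 1 call, and without tumour 2 there were 5, 1 higher and 4 lower. Mme, neprilysin, which cleaves substance P and adrenomedullin, lay at 95.4 and 95.9 scaled FPKM in the normal prostates, was listed at 0 in tumour 1 and lay at 20.3 in tumour 2 (adjusted p = 0.0924). Ace, angiotensin-converting enzyme, lay at 82.5 and 92.7 against 1.27 and 47.0, and Anpep, aminopeptidase N, at 34.4 and 32.4 against 1.15 and 30.6. The values of all 3 were lower in tumour 1 than in tumour 2, as the sum of the luminal markers was. That sum in tumour 1 was mostly Hoxb13, at 295 there and 160 in tumour 2. The part of luminal epithelium in these values was not tested. Of the 13 peptidases, 8 had a negative log2 fold change and 5 a positive one. Prep lay at 6.29 and 6.26 in the normal prostates against 19.9 and 15.1 in the tumours (limma adjusted p = 0.0613). Thop1 lay at 14.5 and 8.73 against 23.8 and 18.6 (limma adjusted p = 0.175).

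Among the 3 genes most like Adm over the 4 libraries, by Euclidean distance of log2(scaled FPKM + 1) among genes tested, were Arc (distance 0.22) and Ttf2 (0.29). Those most like Tac1 were Tacc1 (0.21), Tex15 (0.23) and Pomk (0.25). Among the 3 most like Calca were Cxcl13 (0.95) and Hp (1.01), both also highest in tumour 2, at 30.1 and 19.6 scaled FPKM. With 4 libraries these distances describe the values only.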

How the data were processed

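RNA-seq of 2 normal prostates and 2 TRAMP tumours was analysed from 1 deposited Cufflinks gene table per library, which gives for each gene an FPKM and the bounds of its interval. Per the submitters' processing notes, reads went through Trim Galore and TopHat2 2.0.8, and Cufflinks 2.1.1 and Cuffdiff 2.1.1 are named with builds mm10 and GRCm38. The sources used here do not state settings, annotation or use of strand, and reads of overlapping genes on opposite strands therefore cannot be separated. Libraries were TruSeq preparations of total RNA, per the labels' protocols.

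From the deposited FPKM, 27 rows whose names had become dates were left out and 817 rows of 280 repeated names were summed. Libraries were brought to 1 scale with median-of-ratios factors from 11469 genes above 0 in all libraries (0.793 and 0.689 for normal, 1.34 and 1.50 for tumour, a log2 shift of 0.94 between groups). Implied fragments were the squared ratio of FPKM to the interval's standard deviation, with the interval taken as 2 standard deviations each way. Among single-start genes with few fragments, 71.0 to 72.5% of values were whole to a tolerance of 0.1, where 20% would be by chance. The worth of 1 fragment at a gene listed at 0 was carried over from the library with most fragments, by the ratio of fragment worth between libraries (median over 182 genes). Intervals and these 3-fragment levels cover counting error only. A 0 may be a failed estimate, so it is given as listed at 0. Start positions were raised by 1 to count from 1.

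Tests used limma 3.58.1 in R 4.3.3 with a trend on intensity, as a two-sided test of tumour minus normal with 2 residual degrees of freedom and a prior of 2.85. Adding 1 before the log2 understates changes of low genes. The fit was tested on simulated data. Python 3.11.15, pandas 2.3.3, scipy 1.17.1 and matplotlib 3.10.9 were used for the rest. The 10 genes, the 5 lists beside them and the 7 marker lists were chosen with earlier results of these data known. Named from each list were up to 5 calls in each direction, up to 3 uncalled genes of highest level and genes listed at 0 in 3 libraries and above 5 scaled FPKM in the other, plus the 3 tested genes nearest to each of the 3 members of highest level. Some genes that this rule names are not reported here. Pgk1, Car9, Ramp3, Calcrl, the somatostatin receptors other than Sstr2, Vipr1, Adcyap1r1, the receptors listed at 0, Pdyn, Nppa, Pcsk2 and the markers Pbsn, Krt8, Mbp, Pmp22, Elavl4, Nefl, Dbh, Sox10 and Foxd3 fall outside that rule and were chosen after their values were seen. Alternatives were FPKM as deposited, scaling to the FPKM sum of genes at or under 1% of every library, a pseudocount of 0.1, no filter, no trend, each library left out with the genes tested kept, and, chosen after seeing the data, voom on the implied fragments. Promoter sequences are RefSeq's, GRCm38.p6.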

Additional observations from a re-analysis of the deposited data

How the results depend on the processing

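Of the 10 genes, 1 was called, and this count was 0 with a pseudocount of 0.1, without the filter (7 tested) and by voom on the implied fragments, where the log2 fold change of Adm was 2.60, 1.88 and 2.29. With each library left out in turn, the count was 0 to 1, and the log2 fold change ranged from 1.78 to 2.04 for Adm, from -0.30 to 4.32 for Calca and from -1.07 to -0.65 for Tac1. Calca turned negative without tumour 2 (-0.30). Without the filter 2 receptors, 1 other precursor, 0 hypoxia targets and 494 of all genes were called. With FPKM as deposited 3 peptidases, 10 hypoxia targets and 4108 of all genes were called, and Pam (0.0605), Pcsk7 (0.0242), Vegfa (0.20) and Slc2a1 (0.33) changed sign. Scaled to the FPKM sum, 1 peptidase was called and Slc2a1 changed sign (0.0608). By voom 1 other precursor and without the trend 3 hypoxia targets were called. With a library left out, calls ranged from 0 to 7 for receptors, 0 to 8 for other precursors, 0 to 5 each for processing genes, peptidases and hypoxia targets, and 0 to 3790 for all genes, with 0 in each without normal 1 or normal 2, when 2189 and 2192 of all genes had an unadjusted p under 0.05 by limma. Slc2a1 ranged from -1.44 to 0.42, positive without tumour 1, Vegfa from -1.45 to 0.10, positive without tumour 2, and Krt8 from -7.06 to 1.32, positive without tumour 1. The causes were not tested. Of 43 other named genes run under these alternatives, 21 were called. These 21 kept their sign under all 10, and 20 of them kept the call under at least 5, Higd1a being the exception with 3. Among the 21, Sstr2, Ntsr2, Calcr, Sct, Vgf, Pomc, Nppb, Scg5, Pcsk1n, Elavl4 and Nefl were above 0 in both tumours alone. No scaling, pseudocount or left-out library could turn the sign of these genes, so their kept sign was fixed in advance. A lone remaining library is assumed to vary as the other group does. No paired analysis was made because the normal prostates came from wild-type males and the tumours from TRAMP mice. The labels also give no replicate numbers. Of the 10 genes, 9 rested on at most 34.7 implied fragments over the 4 libraries.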
